A study of Bos taurus with 15 samples.

Results

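Of 27136487 cytosine positions that were listed in at least 1 of 15 cattle, 481 had more than 10 reads in every animal, counted as methylated plus unmethylated calls. These 481 positions are called shared deep sites here, and depth was the only value that chose them. Bull calves gave their liver at birth and heifers their mammary gland on day 21 of the first lactation, and the DNA was read by reduced representation bisulfite sequencing (RRBS), in which DNA is cut with restriction enzymes and unmethylated cytosines are converted. All animals were Holstein, and their dams spent the last 6 to 7 weeks of gestation either heat stressed (HT), with shade alone, or cooled (CL), with fans and soakers. Offspring of cooled dams formed the groups IUCL-B (5 bull calves) and IUCL-H (3 heifers), and offspring of heat stressed dams the groups IUHT-B (4 bull calves) and IUHT-H (3 heifers). Each animal gave 1 library. All calves gave liver and all heifers gave mammary gland, so tissue, sex, age and library cannot be told apart in any comparison between calves and heifers. Calf and heifer libraries did not overlap in coverage. Those of calves listed 307023 to 5958861 positions, of which 17.7% to 50.6% had more than 10 reads, and those of heifers 7552567 to 9753540 positions, of which 0.436% to 0.632% had. Expression markers of the tissues were not analysed here.

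In mammals, DNA methylation is found mostly at cytosines followed by guanine (CpG). Maintenance methyltransferase copies the mark to the new strand after replication, so that a pattern is passed on through cell division, and the pattern differs between cell types mainly at regulatory sequence. Repeated DNA is generally methylated. The level of a site is the percent of its reads that are called methylated, so a level between the extremes means that calls of both kinds were made in the same sample. Positions refer to the bovine assembly UMD3.1, and a sequence is called unplaced if it is not part of chromosomes 1 to 29 or X. Gene, exon and repeat annotation, the surrounding sequence and sequence variants were not analysed here, so differences in sequence between animals or between repeat copies cannot be told apart from methylation.

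The read minimum removed most of the data. More than 10 reads were found in at least 1 animal at 3550183 positions, and at 3121676 of these in a single animal. In all 9 calves 900 positions passed and in all 6 heifers 18486 positions passed, so that the shared deep sites made up 53.4% of the deep sites of liver and 2.60% of those of mammary gland. At the edge of the rule, 41 sites had 11 reads in their shallowest animal, with mean levels of 72.9% in liver and 69.4% in mammary gland. Just outside it, 45 positions had 10 reads in their shallowest animal, with means of 70.2% and 66.9%. The first sites just inside were chr1:112477132, chr1:145303542 and chr1:145444034, whose shallowest animals were calves with 11 reads, and the first positions just outside were chr2:100663919, chr3:82754386 and chr4:57397841. The animals that most often had the lowest depth were IUCL-B calf 4 and IUHT-B calf 5, at 73 sites each, followed by IUHT-H heifer 3 at 60 sites.

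The shared deep sites lay in few places. There were 385 on 23 of the 30 assembled chromosomes and 96 (19.96%) on 13 of 2503 unplaced sequences. Among the other deep sites, 22.6% of those of mammary gland and 16.2% of those of liver were unplaced. Chromosome 27 held 94 sites, chromosome 8 held 62 and the unplaced sequence GJ059765.1 held 58, whereas 7 chromosomes had none. When sites under 1 kb apart were joined, they formed 190 runs. Of these runs, 79 were a single site, and 402 sites (83.6%) were in runs of 2 or more. When sites under 1 Mb apart were joined, they formed 80 windows.

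**Figure D1:**
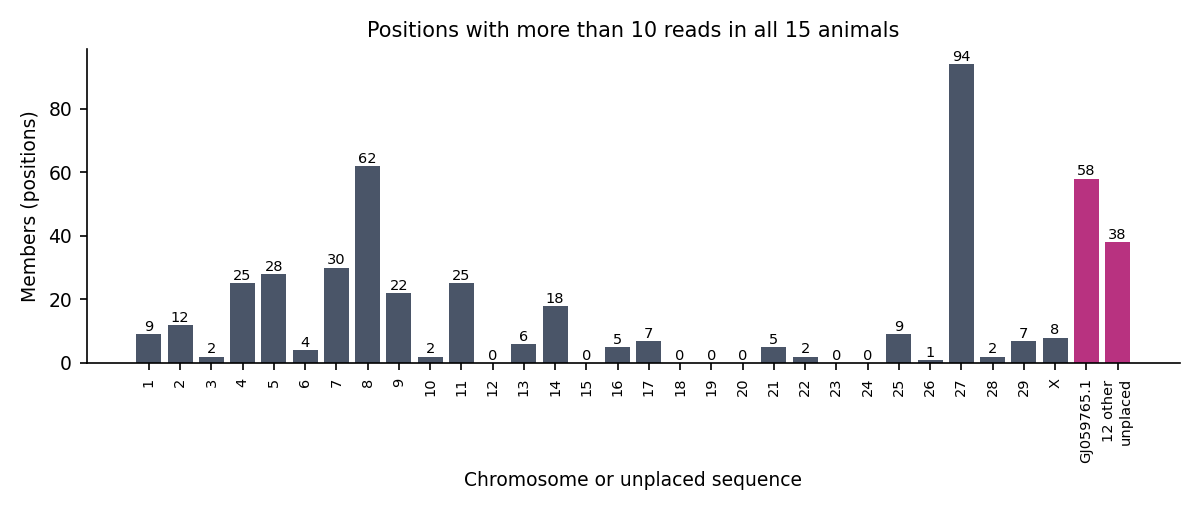
Number of shared deep sites (y axis) on each assembled chromosome (grey bars), on the unplaced sequence GJ059765.1 and on the 12 other unplaced sequences that had any (purple bars). Chromosome 27, chromosome 8 and GJ059765.1 had the most, with 94, 62 and 58 sites, and 7 chromosomes had 0.

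The 4 windows with the most shared deep sites together held 224 of them (46.6%). The same windows held 11.3% of the other deep sites of mammary gland and 21.2% of the other deep sites of liver. The largest was chr27:28497739-28922640, with 88 sites in 38 runs, followed by chr8:74496097-74780761 with 59 sites in 26 runs. The third was GJ059765.1:857-3848, where all 58 sites formed 1 run, and the fourth was chr7:105859064-105921019 with 19 sites in 9 runs. Mean levels were 70.4% in liver and 67.0% in mammary gland in the chromosome 27 window, 76.9% and 77.0% in the chromosome 8 window, 58.3% and 57.3% on GJ059765.1 and 71.0% and 70.8% in the chromosome 7 window. Thus the tissues lay within 5 points of each other in all 4 windows.

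Neighbouring sites had a recurrent spacing. Of 291 gaps under 1 kb between adjacent sites, 37 (12.7%) were 13 bp and 32 (10.997%) were 10 bp, with a median gap of 11 bp. In the other deep sites of mammary gland, 13 bp and 10 bp made up 3.01% and 3.12% of 14171 gaps, with a median of 15 bp. Gaps of 23 bp, the sum of these sizes, were 4.47% of the gaps between shared deep sites and 7.06% of those between the other sites. Regardless of sites in between, another site of the same set lay 23 bp away from 18.9% of the shared deep sites and from 17.7% of the other deep sites of mammary gland. These shares are descriptions of positions that are not independent.

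Depth, which the rule set to more than 10 reads in every animal, was spread unevenly. Median reads per site were 364, 119, 114, 91 and 157 in IUCL-B calves 1 to 5 and 121, 201, 237 and 125 in IUHT-B calves 2 to 5. They were 118, 110 and 106 in the IUCL-H heifers and 82, 132 and 63 in the IUHT-H heifers. The calves averaged 170 ± 86.4 reads (SD, n = 9) and the heifers 102 ± 25.1 (SD, n = 6), and the ranges overlapped. Between 0.254% and 1.90% of all CpG calls of a calf and between 0.390% and 0.735% of those of a heifer fell on these 481 positions. The deepest 10 sites of an animal took between 11.7% and 32.4% of its reads on the set. Medians at the other deep sites of the same tissue were 69 to 265 in calves and 37 to 52 in heifers. IUHT-B calves 2 and 3 had higher medians there (128 and 237), and IUCL-B calf 3 had the same (114). Between 283 and 358 of the sites of a heifer and 38 and 294 of those of a calf were in the highest 0.1% of coverage of that library. In heifers this limit was only 46 to 66 reads. Within this set, which was chosen by depth, the order of the sites by median depth differed between calves and heifers, with a Spearman's rho of 0.10 across the 481 sites. Across sites, depth and level had a rho of -0.11 in liver and 0.16 in mammary gland.

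**Figure D2:**
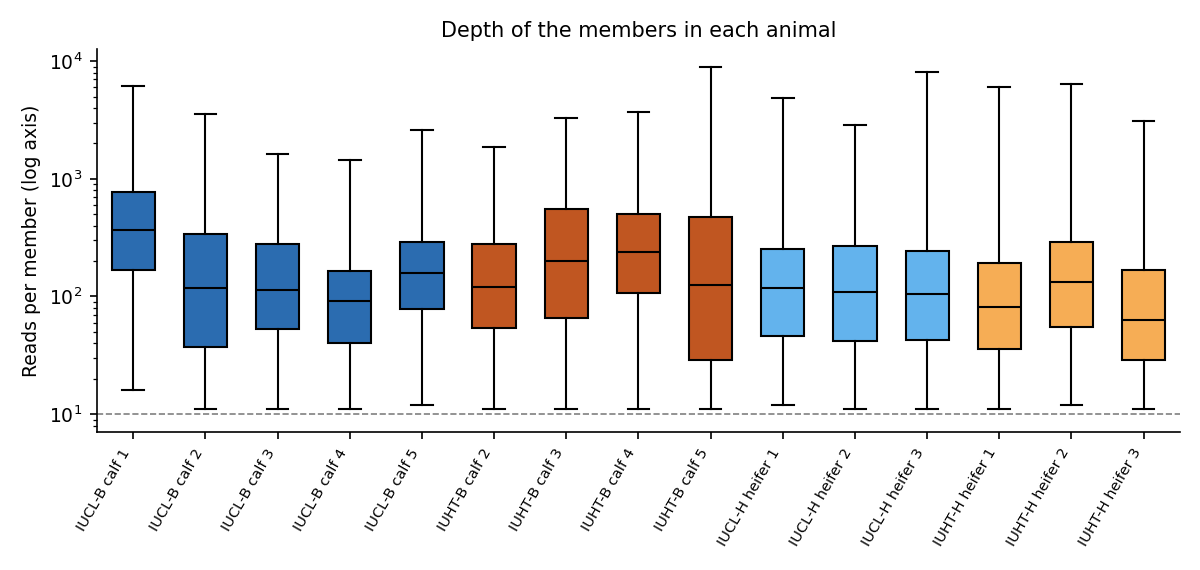
Reads per shared deep site (y axis, log scale) in each of the 15 animals. Boxes give quartiles, the line in a box the median and whiskers the lowest and highest site, with the 10-read limit dashed. Medians ran from 63 reads in IUHT-H heifer 3 to 364 in IUCL-B calf 1.

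The site with the highest minimum depth was GJ059765.1:3171, which had 182 to 8987 reads in a calf and 340 to 841 in a heifer. Its level was 93.2% ± 3.86 in liver (SD, n = 9) and 85.0% ± 1.34 in mammary gland (SD, n = 6), and every calf was above every heifer. The second, chr27:28827574, had at least 171 reads, a level of 74.2% ± 1.91 in the heifers and a mean of 65.0% ± 23.4 in the calves, where animals ran from 24.8% to 98.0%. The third, chr17:70997843, had 145 to 1972 reads in a calf and 791 to 8060 in a heifer. Its 6 heifers were between 3.06% and 4.11%. Its calves fell between 0.254% and 3.64%, apart from IUCL-B calves 3, 4 and 5 at 36.6%, 43.3% and 27.7%.

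Methylation was compared between the tissues to ask whether the positions read in every animal carried the same level. Averaged over the 481 sites, the level was 66.5%, 65.5%, 67.7%, 71.1% and 69.9% in IUCL-B calves 1 to 5 and 68.6%, 65.6%, 69.1% and 65.3% in IUHT-B calves 2 to 5. It was 66.3%, 68.6% and 64.7% in the IUCL-H heifers and 65.5%, 66.8% and 64.5% in the IUHT-H heifers. Liver averaged 67.7% ± 2.11 (SD, n = 9) and mammary gland 66.0% ± 1.52 (SD, n = 6). The difference of -1.65 points did not pass a two-sided exact permutation test over the animals (p = 0.12). Within offspring of cooled dams it was -1.64 points (exact permutation p = 0.357) and within offspring of heat stressed dams -1.56 points (exact permutation p = 0.343). The sign turned when all reads were pooled instead of averaging the sites, with a higher level in mammary gland by 4.05 points (exact permutation p = 0.0276). With a single site taken from each run, mammary gland was lower by 3.46 points (difference -3.46, exact permutation p = 0.0028).

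Site by site, the tissues followed each other. Mean levels of liver and mammary gland had a Pearson's r of 0.91 and a Spearman's rho of 0.90 across the 481 sites, which are not independent replicates. The means were under 5 points apart at 212 sites (44.1%) and under 10 points apart at 329 sites (68.4%). The median difference (mammary minus liver) was -1.69 points, and single sites ran from -47.0 to 28.1. Both tissues were at 80% or more at 180 sites, both were at 20% or less at 25 sites and both were between these limits at 183 sites. There were 0 sites at 20% or less in 1 tissue and at 80% or more in the other. Of the total sum of squares of the levels, differences between sites took 72.1%, between tissues 3.33%, between treatment groups within a tissue 3.69%, between calves of a group 19.3% and between heifers of a group 1.59%. These shares were not divided by degrees of freedom, which are fewest for tissue and most for calves. They therefore do not rank the sources by the size of a difference.

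In the 3 runs with the most sites, the pattern along the run was similar in both tissues. On GJ059765.1, single sites ran from 0.108% to 98.4% in liver and from 1.13% to 94.2% in mammary gland, and the means had an r of 0.93 across its 58 sites. The run with the second most sites, chr9:65873518-65873996, had 13 sites at 90.3% in liver and 88.9% in mammary gland (r = 0.85 across sites). The third, GJ057852.1:493-555, had 10 sites at 75.4% and 71.3% (r = 0.97 across sites). In the run with the next most sites, chr25:32472594-32472625, named after its values were seen, 9 sites had 19.8% in liver and 23.9% in mammary gland, and the r across sites was 0.10. Low and high sites alternated over a few bases in some places. Of 174 pairs of sites under 11 bp apart, 9 differed by more than 50 points in both tissues. At chr27:28896848 and chr27:28896850, 2 bp apart, levels were 97.5% and 0.1001% in liver and 90.2% and 0.439% in mammary gland. At chr17:70997843 and chr17:70997845, also 2 bp apart, the heifers had 3.57% and 96.7% and the calves 13.1% and 78.0%.

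Between the tissues, 14 sites were called by a logistic regression with an overdispersion term and maternal treatment as covariate (F test, Benjamini-Hochberg q of 0.05 or less over the 481 sites, 15 points or more between the means), which is 2.91% of the sites tested. Of these, 5 were higher (1.04%) and 9 lower (1.87%) in mammary gland, on 11 windows and in 13 runs, and 2 were unplaced. An unadjusted p under 0.05 was found at 90 sites. The animals of the tissues did not overlap at 9 sites (1.87%), of which 3 were called. With the same size limit, an exact permutation test at each site also gave 14 calls, and limma on log ratios gave 1. The count of 14 fell to 8, 6 and 7 without IUCL-H heifers 1, 2 and 3, to 7, 9 and 8 without IUHT-H heifers 1, 2 and 3, to 9 without IUCL-B calf 4 and to 8 without IUHT-B calf 4. It was 0 after every site was thinned to 11 reads per animal.

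**Figure D3:**
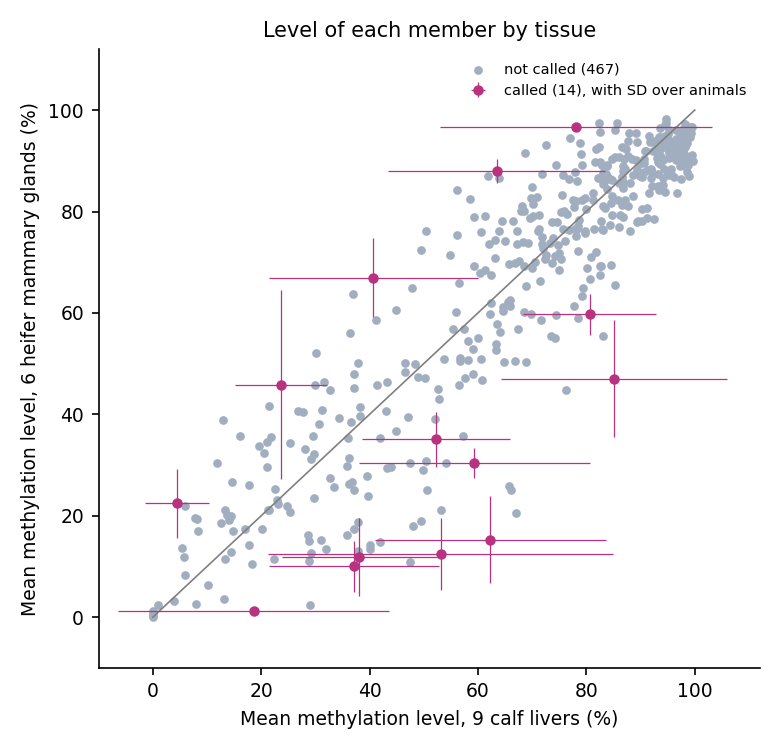
Mean methylation level of each of the 481 sites in 9 calf livers (x axis, %) against 6 heifer mammary glands (y axis, %), with the line of equal levels. Purple points are the 14 called sites with the SD over animals, of which 9 lie below and 5 above the line, and grey points are the other sites.

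The lowest mammary level relative to liver was at chr21:2109795. Its heifers were at 11.9%, 24.4% and 25.9% in IUCL-H and 14.8%, 11.1% and 3.57% in IUHT-H, on 28 to 190 reads. Its calves were at 29.4%, 53.8%, 27.3%, 70.3% and 84.2% in IUCL-B and 68.3%, 67.6%, 76.0% and 83.6% in IUHT-B, on 17 to 146 reads. Every calf was above every heifer, although IUCL-B calves 1 and 3 came within 5 points of the highest heifer. The means were 62.3% ± 21.3 and 15.3% ± 8.52, a difference of -47.0 points (overdispersion F test, q = 0.000909).

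Among called sites without overlap, chr28:43060500 and chr27:23696355 were higher in mammary gland. At chr28:43060500 the heifers were between 84.7% and 91.8% and the calves between 30.6% and 80.9%, with means of 88.0% ± 2.41 and 63.5% ± 20.03 (difference 24.5 points, overdispersion F test, q = 0.0327). At chr27:23696355 the heifers were between 17.3% and 36.1% and the calves between 0 and 16.0%, with means of 22.4% ± 6.83 and 4.39% ± 5.88 (difference 18.1 points, overdispersion F test, q = 0.0111). Thus the heifer and calf ranges were separated by under 5 points at both sites.

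Called sites of opposite direction were found 3 bp apart. Next to chr28:43060500, the site chr28:43060497 was lower in mammary gland, with 11.9% ± 7.64 against 38.1% ± 14.4 in liver (difference -26.3 points, overdispersion F test, q = 0.00321). The site was chosen after its values were seen. Its levels were 5.45%, 4.04% and 5.99% in IUCL-H and 20.8%, 19.97% and 15.0% in IUHT-H, so that the heifer groups did not overlap. In the calves it ranged from 13.9% in IUCL-B calf 1 to 55.6% in IUCL-B calf 4, and IUHT-B calf 5 at 20.7% lay within the range of the IUHT-H heifers.

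The tissues differed in how far animals of a group stood apart. For each animal the absolute difference in level from each other animal of its group was averaged over the sites. This spread was 17.4, 18.7, 17.7, 17.5 and 15.7 points in IUCL-B calves 1 to 5 and 20.8, 21.0, 20.4 and 22.4 points in IUHT-B calves 2 to 5. It was 7.45, 8.36 and 8.54 points in the IUCL-H heifers and 6.54, 6.39 and 6.94 points in the IUHT-H heifers. Every calf was above every heifer. The means were 19.1 ± 2.18 points in liver and 7.37 ± 0.92 in mammary gland, a difference of 11.7 points (two-sided exact permutation p = 0.0004, the smallest the test can give). Each pair of animals enters the values of both, so the values within a group are not independent, although the test treats them so. The difference was 9.28 points within offspring of cooled dams (exact permutation p = 0.0357) and 14.5 points within offspring of heat stressed dams (exact permutation p = 0.0571), each the smallest p that its number of animals allows. Every IUHT-B calf was above every IUCL-B calf, which was not tested. The libraries of IUHT-B calves 3, 4 and 5 listed 431065, 537447 and 307023 positions, fewer than any IUCL-B library (856326 to 5958861). The part of treatment in this order therefore cannot be told apart from that of the libraries. In calves the spread was lowest, at 15.7 points, in IUCL-B calf 5, whose library listed the most positions of any calf (5958861). It was highest, at 22.4 points, in IUHT-B calf 5, whose library listed the fewest (307023). From more to fewer listed positions, the calves between them began with IUCL-B calves 4 and 1, at 17.5 and 17.4 points. Next came IUHT-B calf 2 (1037061 positions) at 20.8 points and IUCL-B calf 2 (895838 positions) at 18.7 points. IUCL-B calf 3 and IUHT-B calves 4 and 3 followed, at 17.7, 20.4 and 21.0 points. The order was thus not strict, and its relation to the spread was not tested. In heifers the spread was highest, at 8.54 points, in IUCL-H heifer 3, whose library listed the most positions (9753540). Every heifer library listed more positions than any calf library. The part of the libraries in the spread cannot be told apart from that of tissue.

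The SD between animals was taken at each site. The median SD of a site was 12.8 points in IUCL-B and 15.1 in IUHT-B, against 4.52 in IUCL-H and 4.36 in IUHT-H. Counting error alone would give medians of 3.42, 2.81, 3.51 and 4.06 points, if reads were independent. The mean group SD was larger in calves at 429 sites (89.2%), with a median ratio of 2.86. Sites between 20% and 80% had a median SD of 20.03 points in IUCL-B and 27.7 in IUHT-B, against 7.18 in IUCL-H and 6.16 in IUHT-H. At a mean of 80% or more the medians were 7.10, 6.98, 2.92 and 2.68 points. Spearman's rho between the mean SDs of calves and of heifers was 0.35 across sites. After all animals were thinned to 11 reads per site, and under the other settings tried, the tissue difference in spread stayed between 7.40 and 14.2 points. With a root mean square difference in place of the mean absolute difference it was 17.7 points.

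**Figure D4:**
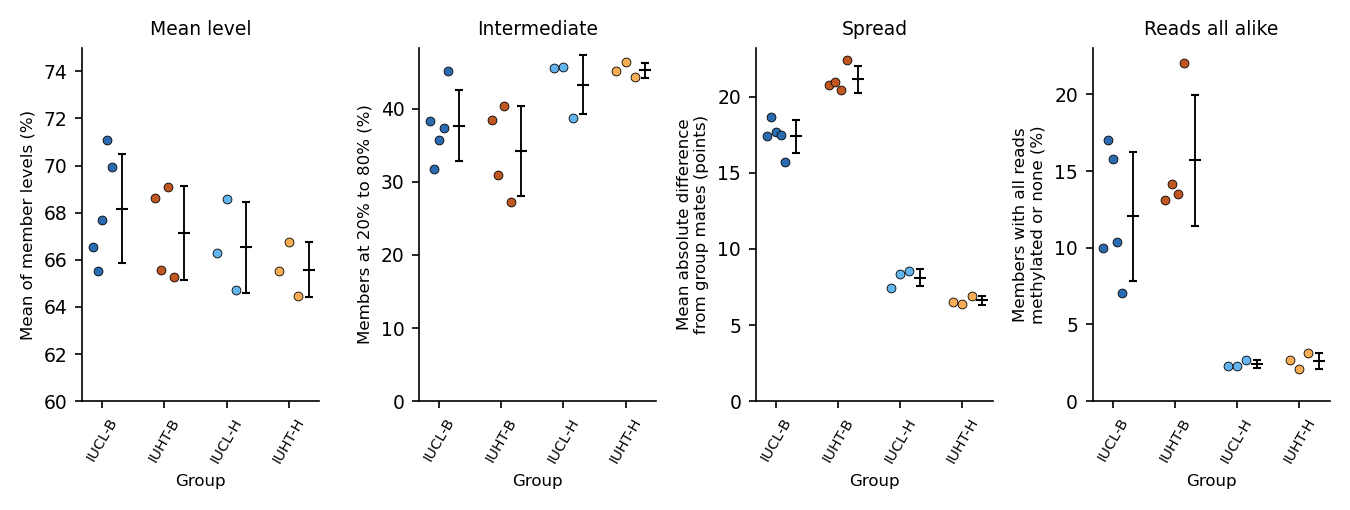
Values of each animal (points) in the 4 groups, with the group mean and SD as a bar beside them. From left to right the y axes give the mean level of the 481 sites (%, axis from 60), the share of sites between 20% and 80% (%), the mean absolute difference from animals of the same group (percentage points) and the share of sites with all reads in 1 state (%). Calves and heifers do not overlap in the third and the fourth panel.

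Across the 481 sites, the levels of a pair of heifers had an r of 0.887 to 0.960 and those of a pair of calves an r of 0.5261 to 0.763. A calf and a heifer had an r of 0.583 to 0.834, with a median of 0.732, whereas the median was 0.648 for calves of the same group and 0.613 for calves of different groups. IUCL-B calf 5 was closest to the heifers (0.769 to 0.834), and IUHT-B calf 5 was farthest (0.583 to 0.655). These are again the calves whose libraries listed the most and the fewest positions. Between them the order was not strict, with a median r to the heifers of 0.734 in IUCL-B calf 4 (3289592 positions) and 0.755 in IUHT-B calf 4 (537447 positions).

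**Figure D5:**
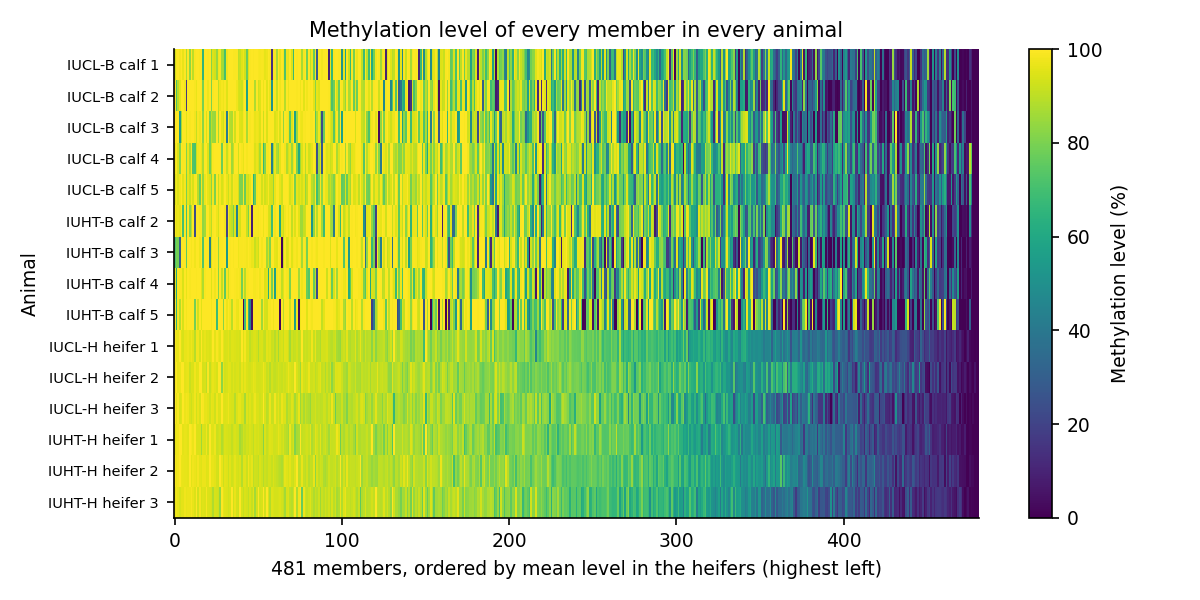
Methylation level (colour, 0 to 100%) of each of the 481 sites (columns, ordered by the mean of the heifers) in each of the 15 animals (rows). The order makes the 6 heifer rows smooth by construction, so the rows show the levels of single animals and not a contrast between tissues. In the calf rows, sites near 0 and near 100% stand beside each other.

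Single calves had fewer sites at an intermediate level than heifers, on average. Between 20% and 80% lay 38.3%, 31.8%, 35.8%, 37.4% and 45.1% of the sites in IUCL-B calves 1 to 5 and 38.5%, 30.98%, 40.3% and 27.2% in IUHT-B calves 2 to 5. The share was 45.5%, 45.7% and 38.7% in the IUCL-H heifers and 45.1%, 46.4% and 44.3% in the IUHT-H heifers. The means were 36.2% ± 5.41 and 44.3% ± 2.84, a difference of -8.13 points (liver minus mammary, two-sided exact permutation p = 0.0048). It was -5.64 points within offspring of cooled dams (exact permutation p = 0.0714) and -11.001 points within offspring of heat stressed dams (exact permutation p = 0.0571, the smallest possible). By the mean of the tissue instead of the single animal, more sites were intermediate in liver, 239 (49.7%), than in mammary gland, 220 (45.7%). The calf with the most listed positions had the highest share of the calves and the calf with the fewest had the lowest. The calves between them did not strictly follow this order, with 37.4% in IUCL-B calf 4 (3289592 positions) and 40.3% in IUHT-B calf 4 (537447 positions). Library and tissue cannot be told apart here either. All reads of a site were in the same state at 7.07% to 22.0% of the sites of a calf and at 2.08% to 3.12% of those of a heifer. The share was higher in every calf than in every heifer. Median depth was 91 to 364 reads in calves and 63 to 132 in heifers, and its part in the share was not tested.

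Sites next to each other deviated together in heifers more than in calves. For each site and animal the deviation from the group mean was taken, and it was correlated over 1304 pairs of sites under 1 kb apart. The correlation was 0.66 in heifers and 0.11 in calves. On GJ059765.1 alone it was 0.72 and 0.11, and without this sequence 0.41 and 0.12. For pairs on different sequences it was 0.02 in heifers and 0.01 in calves. In heifers it was 0.80 for sites 1 bp apart, which are the cytosines of both strands of a CpG, and 0.66 for sites 51 to 999 bp apart. In calves it was 0.16 at 1 bp and 0.09 at 51 to 999 bp. These distance classes include GJ059765.1, which gave 776 of the 1304 pairs, and were not taken without it. Over 13 such strand pairs, the strands of a CpG were over 20 points apart in 29.9% of the measurements in calves (35 of 117) and in 11.5% of those in heifers (9 of 78). These are descriptions, since pairs share sites and animals.

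In mean level over GJ059765.1, the IUCL-H heifers had the widest range. The mean level over 58 sites was 58.9%, 67.8% and 44.5% in IUCL-H and 58.4%, 61.4% and 53.0% in IUHT-H. In liver it was 56.1%, 56.7%, 51.7%, 62.6% and 64.4% in IUCL-B and 63.2%, 50.6%, 64.6% and 55.2% in IUHT-B. The lowest and the highest animal of the series were thus both IUCL-H heifers, whereas the IUHT-H heifers lay within the range of the calves. The chromosome 27 window was in contrast narrow in heifers, between 66.2% and 68.6%, and ran from 63.2% to 74.7% in calves.

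The sites with the largest mean spread within groups were GJ059765.1:1089, GJ058919.1:903 and chr8:74548676. They were selected by this spread, and their values are a description. At GJ058919.1:903 the heifers were between 43.0% and 60.5%. The IUCL-B calves were at 0.917%, 1.49%, 48.1%, 95.8% and 23.9% and the IUHT-B calves at 0.971%, 0.929%, 98.5% and 0, so that both groups spanned nearly the whole scale. At chr8:74548676 the heifers were between 79.0% and 91.8%, the IUCL-B calves at 43.9%, 3.85%, 27.3%, 99.3% and 97.1% and the IUHT-B calves at 100%, 99.5%, 100% and 4.45%. At GJ059765.1:1089 heifers ran from 19.2% to 70.4% and calves from 3.57% to 100%.

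The sites with the smallest spread were near an end of the scale. At chr27:28835003 every animal was at 0, on 348 reads in the calves and 93 in the heifers, which allows a level of up to 0.862% and 3.23%. These limits cover counting error only and take the reads pooled over the animals as independent molecules. At chr27:28896850 the heifers were between 0 and 0.897% and 8 of the 9 calves at 0, with IUCL-B calf 4 at 0.901%. At chr21:70102925 the level was 99.5% ± 0.782 in calves and 96.8% ± 0.681 in heifers, a difference of -2.77 points that was under the size limit for a call.

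The level of the shared deep sites was set against that of the other deep sites of the same animals. In the calves they were lower by 1.30 points on average (difference -1.30 ± 1.39, SD, n = 9), with 6 of 9 calves below 0 (two-sided exact sign-flip permutation p = 0.0312). In the heifers the difference was -2.62 ± 1.54 points (n = 6), with 6 of 6 below 0 (exact sign-flip permutation p = 0.0312, the smallest possible). These tests take both sets of positions as fixed. Their p-values measure how alike the animals were and do not cover the choice of sites, which are clustered. With 1 site per run the differences were -3.30 in calves and -6.42 in heifers. The heifer difference did not pass with all reads pooled (-1.17 points, exact sign-flip permutation p = 0.594) or at sites with more than 20 reads (-1.29 points, exact sign-flip permutation p = 0.188). The calf difference did not pass at sites with more than 20 reads (-0.225 points, exact sign-flip permutation p = 0.668), with the strands of a CpG merged (-0.761 points, exact sign-flip permutation p = 0.133), after thinning to 11 reads (-1.03 points, exact sign-flip permutation p = 0.0586) or without IUCL-B calves 4 and 5 (-1.48 points, exact sign-flip permutation p = 0.0625). On the assembled chromosomes alone, the calves turned to 1.44 points higher (exact sign-flip permutation p = 0.0273) and the heifers to -0.828 (exact sign-flip permutation p = 0.0625). The liver difference did not pass (exact sign-flip permutation p = 0.0625) without any of IUCL-B calves 1, 2, 3 and 5 and IUHT-B calves 3 and 5, with values of -1.38, -1.03, -1.34, -1.27, -1.19 and -1.07. With 5 heifers the test cannot go below 0.0625, and the values were between -3.07 and -2.21.

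Offspring of heat stressed and of cooled dams were compared within each tissue by a logistic regression at every deep site of that tissue. A site was called a differentially methylated cytosine (DMC) where the pooled reads of the groups were 15 points or more apart and the Benjamini-Hochberg q-value was at most 0.2, after the study's choice of model and limits. The study describes a further IUCL-H heifer and a further IUHT-B calf, which were not analysed here. By its methods, reads of an IUHT-B calf could not be aligned, and the study left that calf out as well. The study also describes bull calves of different birth years, and the labels used here do not give the year of a calf. In liver 158 of the 481 sites (32.8%) were DMCs, against 33.1% of the 900 deep sites of liver, with 66 hypermethylated (background 14.2%) and 92 hypomethylated (background 18.9%) in IUHT-B. The share was that of the background. The model has no term for differences between calves, and the median dispersion of the sites was 35.6, where 1 would be counting error alone. With an overdispersion term and an F test 23 sites were called (4.78%, background 6.33%). With edgeR 0 were called (background 0.222%, 43 sites at an unadjusted p under 0.05 against 82 of all 900) and with limma 1 (background 0.333%, 59 against 114 of all 900).

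The site called by limma was chr5:114173323, which is named for that reason, after its values were seen. Its level was 67.4%, 54.9%, 91.5%, 81.8% and 68.2% in IUCL-B calves 1 to 5 and 100%, 100%, 98.3% and 96.6% in IUHT-B calves 2 to 5. Every IUHT-B calf was above every IUCL-B calf (difference 30.4 points of pooled reads, limma q = 0.149, edgeR q = 0.393). The heifers were between 69.5% and 83.8%, and both heifer groups lay in that range.

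In mammary gland 6 sites (1.25%) were DMCs, against 1.54% of the 18486 deep sites, and all 6 were hypomethylated in IUHT-H. Of the background, 1.11% were hypomethylated and 0.427% hypermethylated. With the overdispersion F test, edgeR and limma 0 sites were called (background 0%, 0% and 0.00541%), with 9, 30 and 19 sites at an unadjusted p under 0.05, against 299, 831 and 927 of all 18486 sites. The median dispersion was 1.63. The count of 6 was 13 and 12 without IUCL-H heifers 1 and 3, 3 without IUCL-H heifer 2 and 16 without IUHT-H heifer 2, when the background was 2.39%, 1.71%, 1.42% and 1.95%. Of the 6 sites, 3 lay close together on chromosome 11, at chr11:107304149, chr11:107304179 and chr11:107304185. Their pooled levels were 22.1%, 11.2% and 12.4% in IUHT-H and 39.6%, 33.3% and 29.6% in IUCL-H. These sites were chosen after their values were seen. Over all sites of their run, chr11:107304017-107304185, the IUCL-H heifers were at 22.3%, 46.6% and 17.2% and the IUHT-H heifers at 20.7%, 26.7% and 12.4%. The groups thus overlapped over the run. IUCL-H heifer 2 was the highest and had the most reads there, with a median of 127.5 against 54.5 and 40.5 in IUCL-H heifers 1 and 3. Across all sites, the heifer groups did not overlap at 51 (10.6%, background 10.2%) and the calf groups at 18 (3.74%, background 3.78%).

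A single site, chr27:28791587, was a DMC in both tissues. In liver IUHT-B was higher by 18.8 points (46.5% against 27.7% of pooled reads, logistic regression, q = 5.65e-07) and in mammary gland IUHT-H was lower (30.4% against 45.5%, difference -15.0 points, logistic regression, q = 0.182). Its calves were at 8.61%, 31.2%, 46.5%, 59.2% and 26.9% in IUCL-B and 8%, 34.8%, 44.0% and 70.5% in IUHT-B, so that the groups overlapped over nearly their whole range. Its heifers were at 28.6%, 44.4% and 63.8% in IUCL-H and 32.4%, 25% and 37.2% in IUHT-H, and these groups overlapped as well.

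In the mean level of the 481 sites, no treatment difference passed the test over animals, with 1 exception among the settings tried. The level was 68.2% ± 2.31 in IUCL-B (n = 5) and 67.1% ± 1.99 in IUHT-B (n = 4), a difference of -1.03 points (two-sided exact permutation p = 0.524). Without IUCL-B calves 4 and 5, whose libraries covered 3289592 and 5958861 positions against 307023 to 1052206 in the other calves, it was 0.541 points (exact permutation p = 0.686). With a single calf left out it was between -1.68 and -0.297 points. The exception was the cap on coverage, which left 18 of the sites and gave -10.7 points (exact permutation p = 0.0476). In mammary gland the level was 66.5% ± 1.94 in IUCL-H and 65.6% ± 1.16 in IUHT-H (n = 3 each), a difference of -0.948 points (exact permutation p = 0.6). With 3 against 3 heifers the smallest possible p is 0.1. Without IUCL-H heifer 2 the difference was 0.0783 points.

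Whether the treatment difference itself differed between tissues was tested by the interaction of treatment and tissue. At 9 sites (1.87%) the interaction passed (overdispersion F test, q of 0.05 or less over the 481 sites), with 50 sites at an unadjusted p under 0.05 and a lowest q of 0.0132. limma called 0. The lowest q was at chr1:113200870, named after its values were seen, where the group means were 71.9% in IUCL-B and 96.0% in IUHT-B against 69.8% in IUCL-H and 68.6% in IUHT-H. The count of 9 was 4, 4 and 2 without IUCL-H heifers 1, 2 and 3, 3, 2 and 4 without IUHT-H heifers 1, 2 and 3, 4 without IUCL-B calf 4 and 3 without IUHT-B calf 3 or 4. It was 0 after thinning to 11 reads.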

How the data were processed

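DNA of 9 calf livers and 6 heifer mammary glands was cut with MspI and TaqαI, size selected, converted with bisulfite and sequenced from single ends. Per the labels, the authors used Trim Galore 0.4.4 and Bismark 0.17.0 with UMD3.1, and the study's methods name UMD3.1.1 and other tool versions. The authors deposited the counts of methylated and unmethylated read calls and the percent methylated at each position, separately for each strand, with no read minimum applied. In every line the percent was within 1e-06 points of the value from the counts. Libraries held between 10484911 and 38221835 calls. The labels give 1 library per animal and no other replicate.

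Sites with more than 10 reads in all 15 animals were taken on all sequences. The shared deep sites, tests and rules for naming sites were chosen with earlier results of these data known. Treatment was tested by logistic regression with a likelihood-ratio test, q-values by the Benjamini-Hochberg method over all deep sites of a tissue. Tissue and interaction were tested with a McCullagh-Nelder dispersion, a single value per site for all 15 animals, and an F test over the 481 sites. For values of an animal, two-sided exact permutation tests were used. edgeR 4.0.16 and limma 3.58.1 (log2 ratios, 0.5 added to each count) were alternatives, and the tests across sites were run first on simulated counts with known differences. Wilson intervals of 95% were computed for the named sites and cover counting error only, as reads without molecular identifiers are not independent. Named were up to 4 called sites per direction at which calves and heifers did not overlap (2 higher and 1 lower were found), the 3 runs with the most sites, the 3 sites with the highest lowest depth, the 3 with the largest and the 3 with the smallest spread, sites called in both tissues, and 3 sites at each side of the read limit. Animals are named by their label number (calves) or by record order (heifers). Other alternatives were pooled reads, thinning to 11 reads, more than 20 reads, a cap at the highest 0.1% of coverage, a difference of 25 points, other q-values, merged strands, 1 site per run, assembled chromosomes alone, each animal left out and IUCL-B calves 4 and 5 left out. The spread was also taken as a root mean square difference, and the intermediate share with limits of 10% and 90%.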

Additional observations from a re-analysis of the deposited data

Results flagged for a closer look

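In 6 of 52 groups of values examined, the lowest or highest animal passed the limit of Dixon's ratio, where chance flags about 1 group in 20. That rate does not hold for the sites named for their spread, GJ058919.1:903, chr8:74548676 and chr27:28896850, since the spread chose them. The median depth of the shared deep sites was 364 reads in IUCL-B calf 1 and 91 to 157 in the other IUCL-B calves. The other flagged values were levels at single named sites in calves. At chr28:43060500, IUHT-B calf 5 was at 32.3% and the other IUHT-B calves at 73.1% to 80%. At chr27:23696355, IUHT-B calf 3 was at 12.5% and the others at 0 to 1.89%. At GJ058919.1:903, IUHT-B calf 4 was at 98.5% and the others at 0 to 0.971%. At chr8:74548676, IUHT-B calf 5 was at 4.45% and the others at 99.5% to 100%. At chr27:28896850, IUCL-B calf 4 was at 0.901%, which is 1 methylated read of 111, and the other IUCL-B calves at 0.

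At 9 sites the interaction test called a difference between the treatment differences of liver and mammary gland, with the limit on its dispersion given above. The largest of these differences was at GJ058223.1:238, named after its values were seen. Its levels were 100%, 83.3%, 98.7%, 96.7% and 100% in IUCL-B and 97.2%, 22.2%, 37.9% and 4.11% in IUHT-B, and the heifers of both groups were between 72.1% and 81.7% (interaction F test, q = 0.0436).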

How the results depend on the processing

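The spread between animals and the share of intermediate sites kept their direction and passed 0.05 in every alternative that kept both treatments together. Their ranges were 7.40 to 14.2 and -13.0 to -6.10 points. Measured otherwise, the spread differed by 17.7 points (root mean square difference) and the share by -19.8 points (limits of 10% and 90%). Within a single maternal treatment the share did not pass for either, and the spread did not for heat stressed dams, as given above. The tissue difference in mean level was 4.05 with pooled reads, -3.46 with 1 site per run, -0.316 at more than 20 reads, -4.85 under the coverage cap, -0.852 without IUCL-B calves 4 and 5 and -2.16 to -1.23 with an animal left out. IUHT-B minus IUCL-B was 0.541 without IUCL-B calves 4 and 5, -10.7 (exact permutation p = 0.0476) under the coverage cap, which left 18 sites, and -1.68 to -0.297 with a calf left out. IUHT-H minus IUCL-H was -1.85 to 0.0783 with a heifer left out. Against the other deep sites, liver was -5.93 pooled, -3.30 with 1 site per run, -7.20 under the cap, -1.03 thinned, -0.225 at more than 20 reads (235 sites), -0.761 with strands merged, -1.48 without calves 4 and 5, 1.44 on assembled chromosomes and -1.49 to -1.03 with a calf left out. Mammary gland was -1.17 pooled, -6.42 with 1 site per run, -8.99 under the cap, -1.29 at more than 20 reads, -0.828 on assembled chromosomes and -3.07 to -2.21 with a heifer left out.

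Liver DMCs numbered 23 with the F test, 1 with limma, 0 with edgeR and 80 at 25 points (background 17.4%). They were 66 of 235 at more than 20 reads (background 27.7%) and 7 of 18 under the cap (background 38.5%). With a calf left out they were 154 to 174 (background 31.6% to 36.4%). Mammary DMCs numbered 0 with the F test, limma, edgeR, 25 points, thinning and the cap. They were 3 at a q of 0.05 (background 0.563%) and 2 of 235 at more than 20 reads (background 1.19%). With a heifer left out they were 3 to 16 (background 1.42% to 2.39%). Sites differing between tissues numbered 79 without overdispersion, 1 with limma, 30 at a q of 0.2, 7 at 25 points, 0 thinned and under the cap, 3 at more than 20 reads, 8 with 1 site per run (of 190) and 6 to 19 with an animal left out. Interaction sites numbered 0 with limma, thinning, more than 20 reads and the cap, and 2 to 11 with an animal left out. The cause of these changes was not tested.

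Calf numbers 2 to 5 recur in both calf groups. Deviations of same-numbered calves had low correlations, of 0.09, 0.10, 0.13 and -0.04, yet 3 of 4 calves of each group had their own number as best partner. Whether the numbers mark a pairing was not tested. With the number as a block, liver DMCs were 151 (background 32.4%). The difference in mean level was then -1.43 points, the same value as without IUCL-B calf 1. At 11 reads a single animal's level is coarse, and the cap on coverage left 18 of the 481 sites.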

Other observations

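The 8 shared deep sites on the X chromosome, in 7 runs, had mean levels of 47.2% in liver of bull calves and 46.6% in mammary gland of heifers. Of these, 3 in a single window were at 1.64% and 2.17%, and the other 5 averaged 74.5% and 73.2%, against 67.7% and 66.0% over the whole set. The run chr25:32472594-32472625, where 9 sites lie within a span of 31 bp, was at 20% or less in 6 of 15 animals. Its mean was 5.47%, 8.47%, 4.71%, 25.6% and 13.9% in IUCL-B and 30.6%, 22.7%, 45.6% and 21.3% in IUHT-B, and 6 of its 9 sites were DMCs in liver by the logistic regression (background 33.1%), of which 0 passed the overdispersion F test (background 6.33%). In the heifers it was 29.2%, 43.8% and 8.60% in IUCL-H and 20.2%, 27.2% and 14.7% in IUHT-H. Both were picked after their values were seen and were not tested as groups.

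Within 1 kb of the shared deep sites 11775 other positions were listed in at least 1 animal. Their reads had a level of 65.6% to 77.9% in a calf and 70.5% to 76.6% in a heifer. The values of IUCL-B calves 4 and 5, 76.7% and 77.9%, were above those of the other 7 calves, which lay between 65.6% and 68.6%. These calves listed 5489 and 6078 of the positions, against 1520 to 2699 in the others.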
